A study of Homo sapiens with 12 samples.

Results

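MIR193A, MIR193B, MIR365A and MIR365B are the 4 human precursors of miR-193 and miR-365. They were found by their GENCODE name and make up 4 of the 1881 miRNA rows that the Small-RNAseq libraries list. The rule uses a name and no level, but the set was chosen by someone who knew how these libraries differ between the lines and with the drug. The values of the 4 precursors in these comparisons are therefore given as a description, without a test, and nothing is supported with them.

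A375 is an established human melanoma cell line that is sensitive to dabrafenib, an inhibitor of the kinase BRAF. A375-BIR is its dabrafenib-resistant counterpart, a single derived line selected by continuous culture with the drug, so that a difference between the lines is a difference between these 2 cultures and their histories. Cells of each line were kept for 48 h in 200 nM dabrafenib or in the vehicle, 0.1% DMSO, and total RNA was sequenced as small RNA in 12 libraries. The 4 groups of 3 libraries are A375 in DMSO, A375 in dabrafenib, A375-BIR in DMSO and A375-BIR in dabrafenib. The labels do not say whether the 3 libraries of a group came from separate cultures, so the p-values measure the spread between these libraries, which may be technical.

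MicroRNAs are cut from hairpin precursors, and the mature strand guides a silencing complex to mRNAs that pair with its seed, the bases 2 to 8 from the 5′ end. miR-193 and miR-365 come from paired genes, and miR-193b and miR-365 have been described as repressors of cyclin D1, the partner of the kinases CDK4 and CDK6 at the entry into the cell cycle. The gene of cyclin D1, CCND1, lies downstream of BRAF and MAP kinase signaling, which is constitutively active in A375.

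The mature sequences below are shown because they decide which of the 4 rows can be told apart by a read and which share a seed. They come from RefSeq (GRCh38.p14), which held the mature arms of 4 of the 4 precursors. The capitals mark the seed. The 5p arms of miR-193a and miR-193b, whose seeds differ (GGGUCUU and GGGGUUU), are left out.

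hsa-miR-193a-3p: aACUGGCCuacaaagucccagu
hsa-miR-193b-3p: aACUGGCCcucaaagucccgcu
hsa-miR-365a-3p: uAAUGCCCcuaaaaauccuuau
hsa-miR-365b-3p: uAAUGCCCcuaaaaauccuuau
hsa-miR-365a-5p: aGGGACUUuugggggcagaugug
hsa-miR-365b-5p: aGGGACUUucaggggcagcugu

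miR-193a-3p and miR-193b-3p share the seed ACUGGCC and 18 of 22 bases. Counted from 1 at the 5′ end of miR-193a-3p, they differ by U9C, A10U, A20G and G21C, all outside the seed. The 3p arms of miR-365a and miR-365b are identical over 22 bases, so no read of that arm can be assigned to a copy. Their 5p arms share the seed GGGACUU and differ by U10C, G11A and A19C over the 22 bases compared. In the table of mature sequences, none of these 3 seeds was shared with a miRNA of another gene. The longest run of bases shared by the MIR365A and MIR365B hairpins was 27 bases, against 12 bases for MIR193A and MIR193B. None of the 1504 other hairpins searched shared a run of 15 bases with any of the 4.

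The precursors lie on the plus strand in 2 pairs (hg38, GENCODE v44). MIR193B (chr16:14303967-14304049) and MIR365A (chr16:14309285-14309371) are 5235 bases apart on chromosome 16. Both are intronic in the long non-coding RNA MIR193BHG, in each of the 5 of its 19 transcripts that span them. MIR193A (chr17:31559996-31560083) and MIR365B (chr17:31575411-31575521) are 15327 bases apart on chromosome 17. MIR365B is exonic in the 1 transcript of MIR365BHG, whereas MIR193A lies 11058 bases before the start of that gene and in no transcript of it.

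A seed match can be looked up in the target. In the 3′ UTR of CCND1 (MANE Select transcript, 3192 bases), the motif GGCCAGT, the reverse complement of the miR-193 seed, was found 1 time on the mRNA strand, which was the only strand searched. The match lies at bases 1448 to 1454 of the UTR, on the plus strand of chromosome 11, and is shown in capitals within 30 bases (chr11:69652715-69652744, GENCODE v44 transcripts, hg38).

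CCND1 3′ UTR: agaggatgttcataaGGCCAGTatgattta

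The motif occurs in 10.3% of the 18780 3′ UTRs of MANE Select transcripts, and in 18.6% of the 3200 UTRs at least as long as that of CCND1 when each is read over its first 3192 bases. The reverse complement of the miR-365 3p seed, GGGCATT, had 0 matches in the CCND1 3′ UTR and was found in 9.22% of all UTRs and 17% of those read over the same length. A match is a description of letters, and the absence of 1 in this window says nothing of other kinds of pairing.

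The libraries were shallow, and the depth moved with the treatment. The total of expected counts per library ranged over 77264 to 121802 for the vehicle-treated A375 and 106427 to 122792 for the vehicle-treated A375-BIR, but only over 36955 to 51532 for A375 and 35070 to 59899 for A375-BIR after dabrafenib. Over the 12 libraries, MIR193A received 369 counts, MIR193B 227, MIR365B 157 and MIR365A 47.5. With so few counts, 3 counts in a library, taken here as the limit that a count of 0 allows, stood for 20.6 to 35.6 CPM (counts scaled to a library total of 1000000) in the DMSO libraries and for 44.7 to 98.8 CPM in the dabrafenib libraries. The CPM are taken over the effective library size (total scaled by the TMM factor of edgeR), and intervals and limits cover counting error only. The part of depth in the differences below was not tested. The A375-BIR library in DMSO numbered 3 stood apart from the other 2. The variance between it and each of them was 29.4 and 32.1 times that of counting noise (chi-square per degree of freedom). This is over the 207 and 218 rows with enough counts in the 2 libraries compared. Between the other 2 it was 2.50, over 205 rows. Without the library numbered 3, the line difference in DMSO described below was -0.38 for MIR193A, -0.25 for MIR193B, 0.67 for MIR365B and 0.80 for the summed miR-365.

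Of the 4 precursors, MIR193A, MIR193B and MIR365B passed the filter on low counts, and MIR365A did not. Among the 175 precursors that passed, ordered by mean CPM over the 12 libraries, MIR193A was in place 104 with 350 CPM, next below MIR29A and next above MIR769. MIR193B was in place 118 with 251 CPM, and MIR365B in place 157 with 138 CPM. This order is over all libraries and turns between genes of a pair in A375 in dabrafenib. The rows are thus moderate to low in these cells: the median of the 175 was 525 CPM, and MIRLET7B, the highest, stood at 188246 CPM. The mature arms are all 22 or 23 bases long, so these levels were not divided by length, and the files give 1 value per precursor without its arms.

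**Figure D1:**
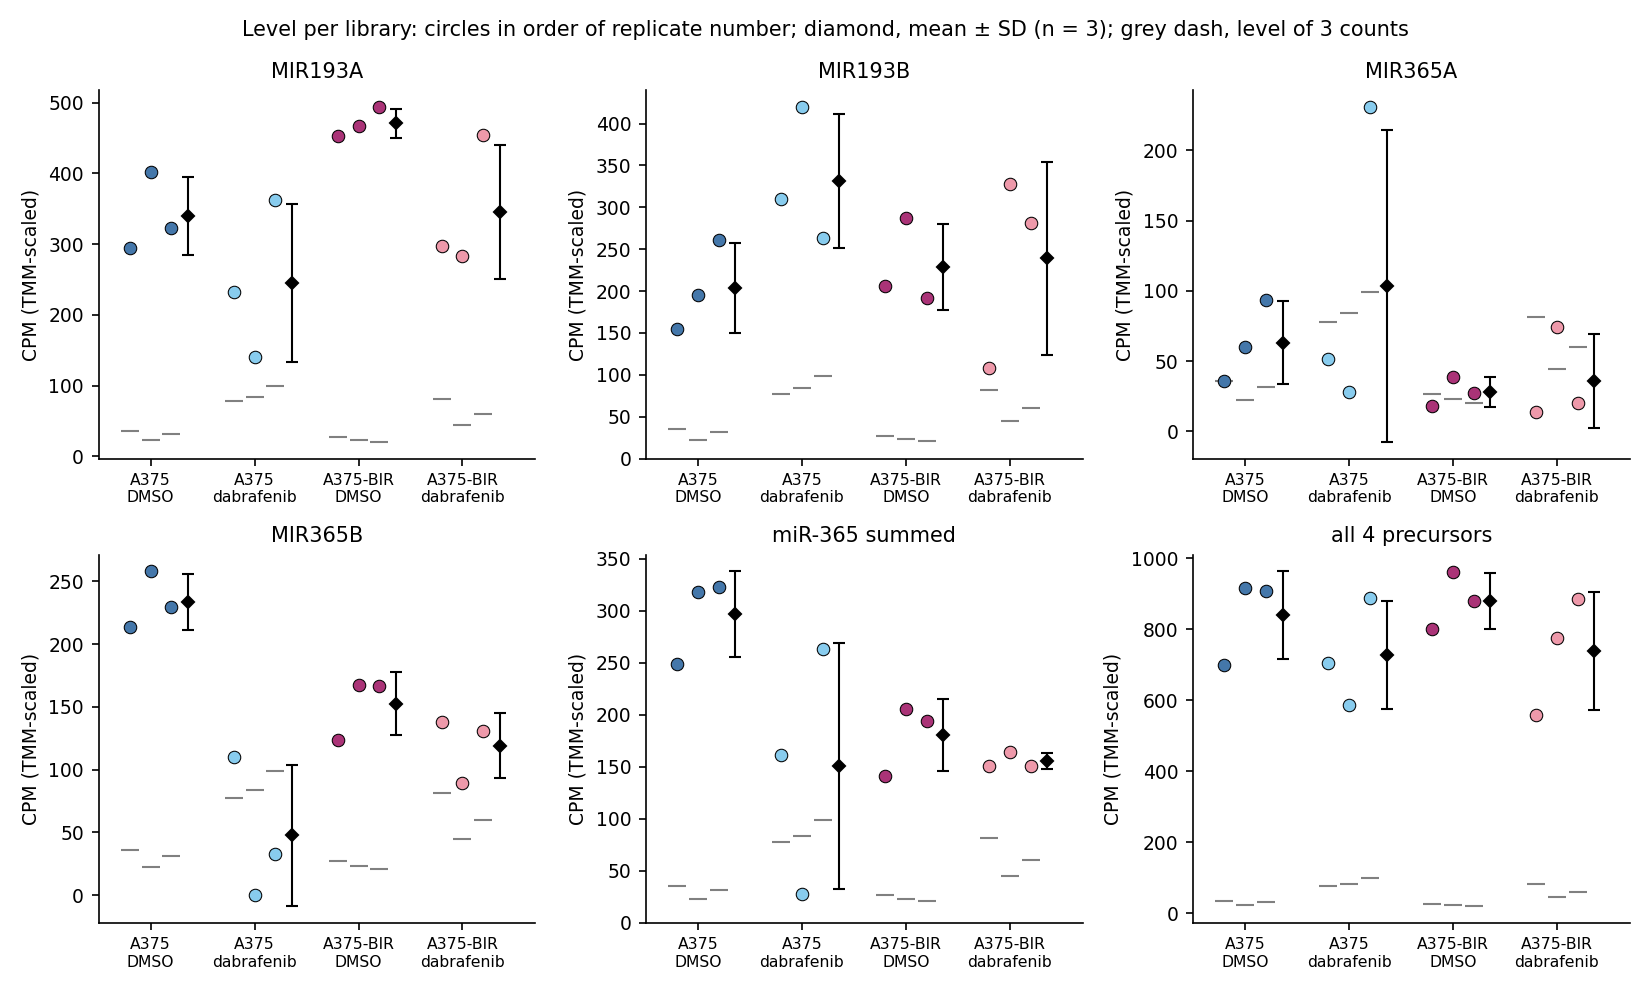
Level of each precursor, of the summed miR-365 and of all 4 precursors in each of the 12 libraries, in CPM. Circles are libraries, diamonds the mean ± SD of 3 libraries, and grey dashes the level that 3 counts stand for. MIR365B in A375 in dabrafenib sits at 0 to 110 CPM, below the 214 to 258 CPM of A375 in DMSO, and MIR365A lies at or under the dash in most dabrafenib libraries.

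The summed level of the 4 precursors was 840 ± 123 CPM in A375 in DMSO, 727 ± 152 in A375 in dabrafenib, 880 ± 79.3 in A375-BIR in DMSO and 739 ± 167 in A375-BIR in dabrafenib (mean ± SD, n = 3). With TMM the ranges of all 4 groups overlapped, whereas with total counts alone the A375 libraries in dabrafenib, at 408 to 731 CPM, lay below those in DMSO, at 761 to 1001 CPM. Fewer cells with the miRNA and less miRNA per cell cannot be told apart in such bulk RNA.

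MIR193A is the chromosome 17 gene of miR-193 and the most abundant of the 4 by its mean over the 12 libraries, although in A375 in dabrafenib MIR193B was above it (331 against 245 CPM). In DMSO it was at 295, 401 and 323 CPM in the A375 libraries and at 454, 466 and 494 CPM in the A375-BIR libraries. The A375-BIR libraries were all higher, and the 2 groups did not overlap. In dabrafenib it was at 233, 140 and 362 CPM in A375 and at 298, 283 and 455 CPM in A375-BIR. In each line the dabrafenib libraries reached lower than the DMSO libraries, yet 1 of them lay within or at the edge of the DMSO range. With total counts alone, MIR193A in A375 in dabrafenib (97.0 to 298 CPM) lay below A375 in DMSO (321 to 438 CPM) and below A375-BIR in dabrafenib (314 to 476 CPM).

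The group means of MIR193A were 471 ± 20.5 CPM in A375-BIR in DMSO, 345 ± 94.9 in A375-BIR in dabrafenib, 340 ± 55.3 in A375 in DMSO and 245 ± 112 in A375 in dabrafenib (mean ± SD, n = 3). Neighbours in this order overlapped, with 454.6 CPM as the highest A375-BIR library in dabrafenib and 453.5 CPM as the lowest in DMSO. Each log2 fold change of the 4 precursors is followed by its standard error and its range over 20 alternatives in filter, scaling, test, block, rounding, rows and libraries left out. For MIR193A, A375 over A375-BIR gave -0.45 (SE 0.24, range -0.60 to -0.28) in DMSO and -0.53 (SE 0.34, range -0.99 to -0.25) in dabrafenib. Dabrafenib over DMSO gave -0.51 (SE 0.32, range -1.0 to -0.23) in A375 and -0.44 (SE 0.27, range -0.70 to -0.21) in A375-BIR, a difference of -0.07 (SE 0.41, range -0.52 to 0.21). The sign of the drug difference was thus the same in both lines under every alternative, but its size was not steady.

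MIR193B is the chromosome 16 gene with the same seed. In DMSO it was at 154, 196 and 261 CPM in A375 and at 207, 288 and 192 CPM in A375-BIR. These groups overlapped between 192 and 261 CPM, with 1 A375 library below and 1 A375-BIR library above that stretch. In dabrafenib it was at 310, 420 and 264 CPM in A375 and at 108, 328 and 281 CPM in A375-BIR. All 3 A375 libraries in dabrafenib were above those in DMSO, although the nearest of them were 264 and 261 CPM, and with total counts alone the groups overlapped (216 to 291 and 168 to 288 CPM). The A375-BIR libraries in dabrafenib spread on both sides of their DMSO range, the lowest resting on 4 counts.

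The group means of MIR193B were 331 ± 80.1 CPM in A375 in dabrafenib, 239 ± 116 in A375-BIR in dabrafenib, 229 ± 51.6 in A375-BIR in DMSO and 204 ± 53.6 in A375 in DMSO (mean ± SD, n = 3), and each group overlapped its neighbours in this order. Dabrafenib over DMSO gave 0.70 (SE 0.37, range 0.19 to 0.90) in A375, lowest with total counts alone and at 0.29 and 0.31 with the looser filters. In A375-BIR it gave 0.14 (SE 0.35, range -0.09 to 0.42), and the difference was 0.56 (SE 0.51, range 0.08 to 0.77). The lines differed by -0.16 (SE 0.32, range -0.37 to 0.04) in DMSO and by 0.40 (SE 0.39, range -0.09 to 0.65) in dabrafenib. For MIR193B only the drug difference in A375 and the difference in response thus kept their sign under every alternative.

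MIR365B is the chromosome 17 copy of miR-365, with a higher mean than MIR365A in each group but A375 in dabrafenib (47.6 against 103 CPM). In DMSO it was at 214, 258 and 229 CPM in A375 and at 123, 167 and 167 CPM in A375-BIR. The A375 libraries were all higher. In dabrafenib it was at 110, 0 and 32.9 CPM in A375 and at 138, 89.5 and 130 CPM in A375-BIR. The A375 libraries in dabrafenib lay below all libraries of the same line in DMSO, and in the library at 0 the limit of 3 counts allows up to 83.9 CPM. In dabrafenib the lines overlapped with TMM but not with total counts alone, where A375 was at 0 to 89.5 CPM and A375-BIR at 100 to 145 CPM.

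The counts behind these levels of MIR365B in A375 were 18, 34.25 and 22 in DMSO and 4.25, 0 and 1 in dabrafenib. Pooled over 3 libraries, the 5.25 counts in dabrafenib give 50.1 CPM with a 95% Poisson interval of 16.8 to 115 CPM, and the 74.25 counts in DMSO give 237 CPM with an interval of 186 to 298 CPM. These intervals leave out any spread between libraries beyond counting. Dabrafenib over DMSO gave -2.27 (SE 0.57, range -3.83 to -1.68) in A375 and -0.46 (SE 0.44, range -0.70 to -0.22) in A375-BIR, a difference of -1.80 (SE 0.76, range -3.44 to -1.22). The value in A375 rests on few counts: it was lowest without the first A375 library in dabrafenib, which held 4.25 of the counts, and highest without the second. A375 over A375-BIR gave 0.59 (SE 0.36, range 0.49 to 0.77) in DMSO and -1.21 (SE 0.67, range -2.83 to -0.63) in dabrafenib, the latter moved by the same libraries.

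MIR365A, the chromosome 16 copy, held 9 counts or fewer in every library. In DMSO it was at 35.6, 60.2 and 93.8 CPM in A375 and at 18, 38.9 and 27.4 CPM in A375-BIR. In dabrafenib it was at 51.7, 28 and 231 CPM in A375 and at 13.5, 74.6 and 20.1 CPM in A375-BIR. The highest of these values came from 7 counts, and all pairs of groups compared overlapped. Its pooled level in A375 was 95.4 CPM in dabrafenib (95% Poisson interval 45.8 to 175) and 63.9 CPM in DMSO (39.0 to 98.7), with intervals that overlap and that leave out the spread between libraries.

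Because the 3p arms are identical, the sum of MIR365A and MIR365B is the miR-365 level that does not depend on how reads were divided between copies. The sum was at 249, 318 and 323 CPM in A375 in DMSO and at 162, 28 and 264 CPM in A375 in dabrafenib. These groups overlapped, unlike those of MIR365B alone, but with total counts alone they did not, at 272 to 357 CPM in DMSO and 19.4 to 216 CPM in dabrafenib. In A375-BIR it was at 141, 206 and 194 CPM in DMSO and at 151, 164 and 150 CPM in dabrafenib. The A375-BIR groups overlapped as well, with means of 181 ± 34.4 and 155 ± 7.66 CPM (mean ± SD, n = 3).

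In DMSO no A375-BIR library reached the summed miR-365 level of any A375 library, with a log2 fold change of 0.72 (SE 0.34, range 0.61 to 0.89). In dabrafenib the line difference was -0.17 (SE 0.50, range -0.78 to 0.33). Dabrafenib over DMSO gave -1.04 (SE 0.44, range -1.65 to -0.54) in A375 and -0.15 (SE 0.41, range -0.37 to -0.06) in A375-BIR, a difference of -0.89 (SE 0.61, range -1.50 to -0.39). The value in A375 was closer to 0 than that of MIR365B alone, and was highest without the second A375 library in dabrafenib. That second library held 1 count for both copies together.

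**Figure D2:**
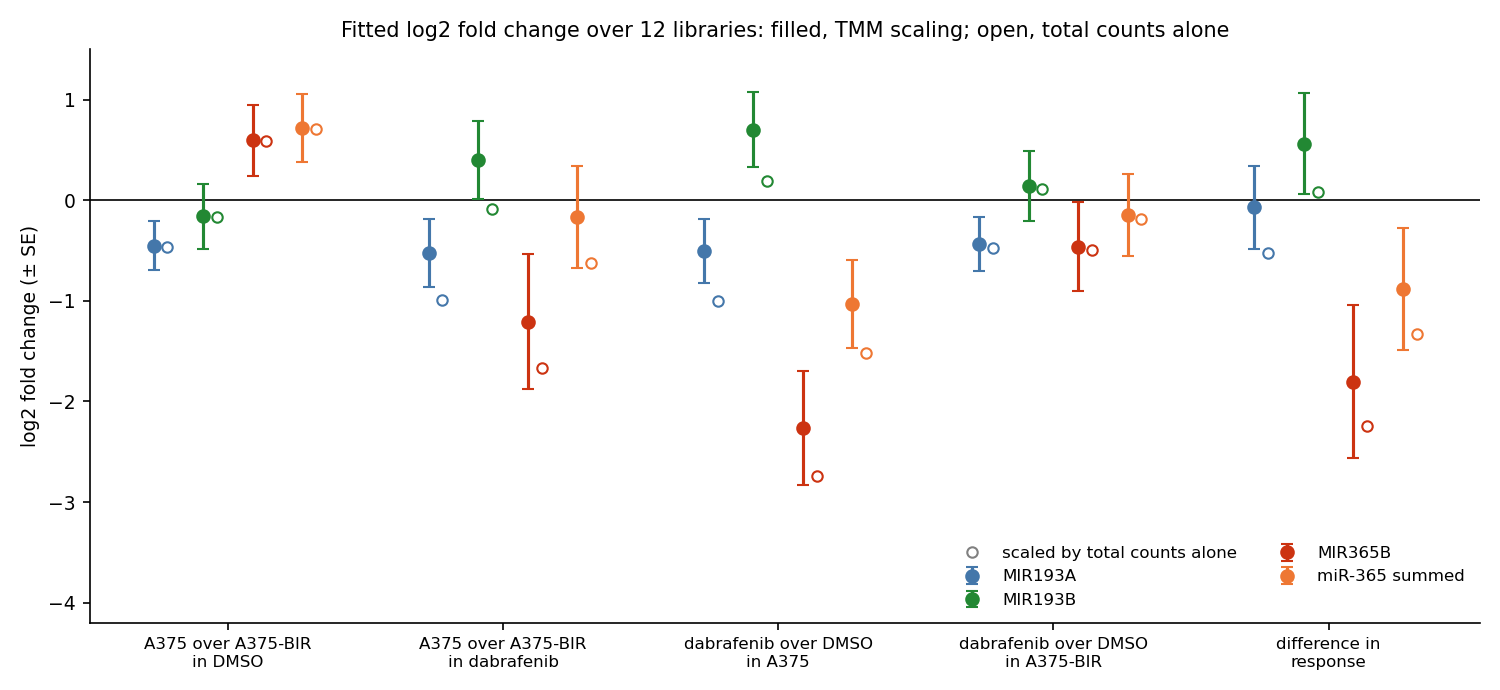
Fitted log2 fold change with its standard error for MIR193A, MIR193B, MIR365B and the summed miR-365 in the 4 comparisons and in the difference between the lines in dabrafenib response. Filled circles use TMM scaling and open circles total counts alone; MIR193B in A375 over A375-BIR in dabrafenib is the point whose sign differs between them, at 0.40 and -0.09.

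Groups that do not overlap were common among all precursors. The tallies below are over all 4 precursors. MIR365A, whose groups overlapped in each, is not among the 175, so over the same set each tally is out of 3. Between the lines in DMSO, 2 of the 4 precursors, MIR193A and MIR365B, did not overlap, against 61.1% of the 175 precursors that passed the filter. Between DMSO and dabrafenib in A375 it was again 2 of 4, MIR193B and MIR365B, against 44%; with total counts alone it was 2 of 4 as well, but MIR193A and MIR365B, against 55.4%. Between the lines in dabrafenib (50.3% of the 175) and with the drug in A375-BIR (36.6%), the groups of all 4 overlapped with TMM. With total counts alone, 2 of 4, MIR193A and MIR365B, did not overlap between the lines in dabrafenib, against 53.7%. Since these contrasts were known when the set was put together, nothing is read from the counts.

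The choice of scaling matters for the size of every drug difference in A375. Against TMM, total counts alone shifted the median log2 fold change of the 175 precursors by -0.50 for the drug in A375, by -0.48 for the lines in dabrafenib and by -0.47 for the difference in response. The size factors of DESeq2 shifted it by -0.20 for the drug in A375, by 0.17 for the lines in DMSO and by -0.12 for the difference in response. MIR193A and MIR365B stayed below 0 and MIR193B above 0 for the drug in A375 under these scalings, at -1.0, -2.75 and 0.19 with total counts alone and at -0.71, -2.46 and 0.50 with DESeq2 size factors. The TMM factors were 0.69 to 0.82 in A375 in dabrafenib and 1.05 to 1.19 in the other libraries.

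Ratios within a library do not depend on scaling. The chromosome 17 locus (MIR193A plus MIR365B) over the chromosome 16 cluster (MIR193B plus MIR365A) was 2.68, 2.58 and 1.56 in A375 in DMSO and 0.946, 0.313 and 0.800 in A375 in dabrafenib. The 2 groups did not overlap, and the chromosome 17 locus led in every DMSO library of A375. The chromosome 16 cluster was ahead in the dabrafenib libraries of A375, by 14 to 13.25, 16 to 5 and 15 to 12 counts. In the first and the third of these the lead is of few counts and within counting error. In A375-BIR the ratio was 2.57, 1.94 and 3.01 in DMSO and 3.57, 0.926 and 1.94 in dabrafenib. These groups overlapped, and 1 of the 3 dabrafenib libraries was below 1.

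From group totals, the ratio of the loci was 183 to 84 counts in A375 in DMSO (2.18) and 30.25 to 45 counts in A375 in dabrafenib (0.672). In A375-BIR it was 242 to 99 counts in DMSO (2.45) and 70.25 to 46.5 counts in dabrafenib (1.51). The miR-193 pair alone gave overlapping groups in A375: MIR193A over MIR193B was 1.91, 2.05 and 1.24 in DMSO and 0.750, 0.333 and 1.38 in dabrafenib. The separation of the loci in A375 therefore also draws on the division of miR-365 between its copies, which the files do not settle.

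The sum of both miR-193 precursors over the sum of both miR-365 precursors is free of that division. It was 1.80, 1.88 and 1.81 in A375 in DMSO, the narrowest group of the 4, over 21 to 42.25 miR-365 counts a library. Counting error at such counts is wider than this spread, which is thus no measure of precision. The ratio was 4.67, 3.66 and 3.53 in A375-BIR in DMSO (15.75 to 28.33 miR-365 counts). In A375-BIR in dabrafenib it was 2.69, 3.73 and 4.89 (5.58 to 11 miR-365 counts). All of these A375-BIR libraries lay above those of A375 in DMSO. In A375 in dabrafenib it was 3.36, 20.0 and 2.38, the highest of them over a single miR-365 count. Over group totals the ratio was 1.84 in A375 in DMSO and 3.93, 3.83 and 3.85 in A375 in dabrafenib, A375-BIR in DMSO and A375-BIR in dabrafenib. The total of A375 in dabrafenib rests on 15.25 miR-365 counts, and its libraries spread from 2.38 to 20.0.

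**Figure D3:**
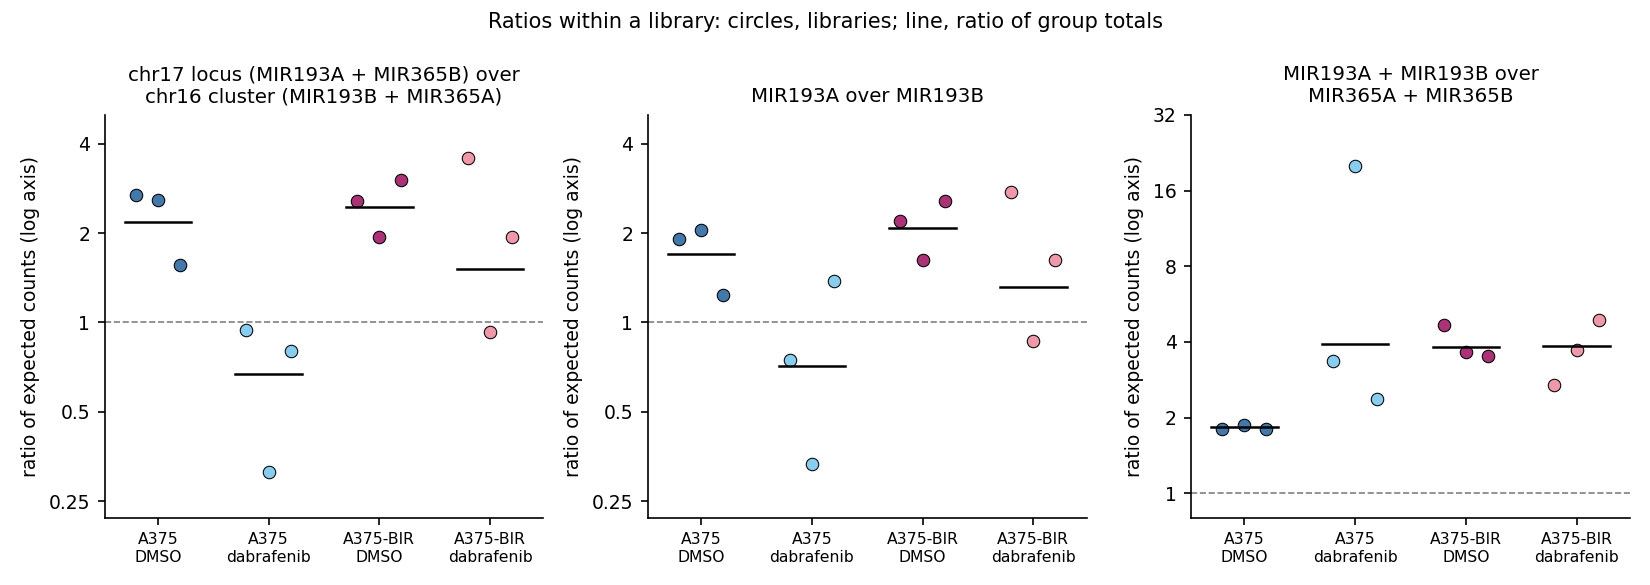
Ratio of expected counts within each of the 12 libraries on a log axis, for the chromosome 17 locus over the chromosome 16 cluster, for MIR193A over MIR193B and for summed miR-193 over summed miR-365. Circles are libraries and lines the ratio of group totals; the ratio of the loci lies below 1 in the 3 A375 libraries in dabrafenib and above 1 in the 3 in DMSO.

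The share of miR-365 counts listed under MIR365A varied widely. It was 14.3, 18.9 and 29% in A375 in DMSO and 12.7, 18.9 and 14.1% in A375-BIR in DMSO. In dabrafenib it was 32, 100 and 87.5% in A375 and 8.96, 45.5 and 13.3% in A375-BIR. The A375 libraries in dabrafenib were above all DMSO libraries, but their sums were 6.25, 1 and 8 counts. Expected counts that are not whole, as RSEM gives when it divides reads, were found for MIR365B in 7 of 12 libraries, for MIR193A in 4, for MIR365A in 1 and for MIR193B in 0. The sum of both miR-365 copies was not whole in the same 7 libraries, such as 15.75 counts in the first A375-BIR library in DMSO. Some reads were thus divided with sequences outside the pair, and the sum is free only of the division between the copies.

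In 8 other pairs of genes with the same mature miRNA, the division between copies differed from pair to pair but was mostly steady among libraries. MIR181A1, MIR199A1 and MIR26A1 held 49.6 to 50.8%, 50 to 52.1% and 49.2 to 50% of their pair. MIR125B1 held 64.1 to 78.3%, MIR29B1 88 to 100% and MIR16-1 25 to 50%. MIR24-1 held 0% in every library, and MIR219A1 100% in the few libraries with a count. The range over libraries was 91.0 percentage points for MIR365A against at most 25 points for these pairs. The median sum was 13.4 counts for miR-365, and the pairs with the nearest sums, MIR29B1 with MIR29B2 (14.6 counts) and MIR199A1 with MIR199A2 (16.4 counts), had ranges of 12 and 2.11 points. Most of these other shares lay at or near 0, 50 or 100% in every library, so their narrow ranges are no yardstick for that of MIR365A. Whether low counts or the loci account for the range of MIR365A was not tested.

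**Figure D4:**
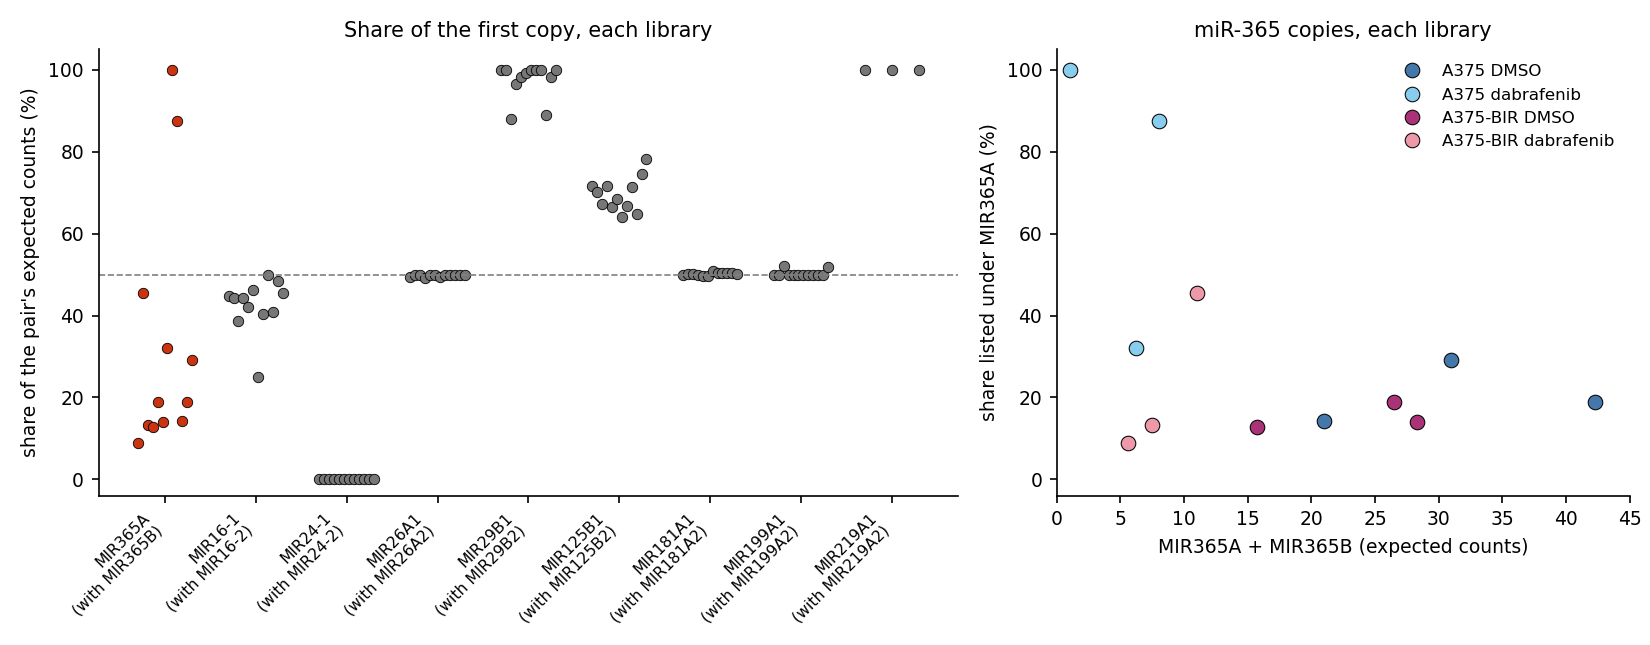
Left, the share of the first copy in the expected counts of a pair of genes with the same mature miRNA, for 9 pairs, with 1 circle per library. Right, the share listed under MIR365A against the summed miR-365 counts of the same library; the shares of 87.5 and 100% belong to A375 libraries in dabrafenib with 8 and 1 counts.

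The precursors with the most similar profiles were found among those that passed the filter, by the root mean square difference of centred log2 CPM over the 12 libraries. MIR767 (0.31), MIR296 (0.35) and MIR1307 (0.39) were nearest to MIR193A, against a median of 0.77 over all. MIR25 (0.40), MIR181B2 (0.40) and MIR181B1 (0.42) were nearest to MIR193B, with a median of 0.79. For the summed miR-365 they were MIR664A (0.36), MIR767 (0.55) and MIR887 (0.64), with a median of 1.02. MIR193B and MIR193A shared none of their 3 nearest, while MIR767 was near to both MIR193A and the summed miR-365.

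Other miRNAs directed at cyclin D1 or its partners were taken as a list of 14 genes: the miR-15/16 family, members of the miR-17-92 cluster, MIR34A, MIR449A and MIRLET7B. Of these, 8 passed the filter. Called means here an FDR under 0.05 in the quasi-likelihood test of edgeR with Benjamini-Hochberg adjustment over the 175 precursors. Between the lines in DMSO, where 46.3% of the 175 were called, 6 of the 8 were called, 5 of them lower in A375 than in A375-BIR. The list median was a log2 fold change of -1.37, against -0.16 over all tested. The filter asks for enough counts in 3 libraries, which the A375-BIR libraries alone can supply. MIR424, at 87.1 CPM in A375 in DMSO against 283 CPM in A375-BIR, is such a case. The tallies and list medians between the lines, here and in dabrafenib, may thus lean toward lower values in A375 by the choice of rows. MIR17 and MIR20A were not called, and the list as a whole was not tested. The list was also set with earlier results of these data known, so its calls are not independent support.

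MIR15B of the miR-16 family in DMSO was at 157 ± 10.2 CPM in A375 against 613 ± 101 CPM in A375-BIR (mean ± SD, n = 3), a log2 fold change of -1.96 (SE 0.26, edgeR FDR = 3.14e-05). MIR16-1 (-1.34, SE 0.33, edgeR FDR = 0.00408) and MIR16-2 (-1.39, SE 0.31, edgeR FDR = 0.00166), which share a mature sequence and thus divided counts, were down-regulated in A375 as well. So were MIR424 (-1.65, SE 0.32, edgeR FDR = 0.000696), of the same family, and MIR34A (-1.61, SE 0.31, edgeR FDR = 0.000627), which p53 induces. MIRLET7B, of the let-7 family, was up-regulated in A375 (0.63, SE 0.15, edgeR FDR = 0.00336). In each of these calls the 3 libraries of A375 did not overlap those of A375-BIR, and each was held under 20 of 20 alternatives.

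In dabrafenib, with 46.3% of the 175 called between the lines, 4 of the 8 were called: MIR15B (-2.25, SE 0.45, edgeR FDR = 0.00112), MIR424 (-2.01, SE 0.46, edgeR FDR = 0.00258) and MIR34A (-1.63, SE 0.41, edgeR FDR = 0.00463) lower in A375, and MIRLET7B (1.53, SE 0.16, edgeR FDR = 1.90e-06) higher. The folds of MIR15B and MIR424 here rest on 6 and 7 counts over the A375 libraries in dabrafenib. The list median was -1.41, against -0.03 over all. With the drug in A375, 25.1% of the 175 were called and 2 of the 8. MIRLET7B rose (0.95, SE 0.15, edgeR FDR = 0.000289), by 0.44 with total counts alone, and its call was held in 19 of 20 alternatives and lost when rows needed only 1 CPM in 3 libraries (edgeR FDR = 0.0734). MIR15B fell (-1.42, SE 0.47, edgeR FDR = 0.0351), to the same 6 counts, and was called in only 12 of 20 alternatives and not with a replicate block (edgeR FDR = 0.0537). In A375-BIR, with 20.6% called, MIR15B alone was called, and it fell (-1.14, SE 0.27, edgeR FDR = 0.00752). That call was held in 18 of 20 alternatives and lost without the first A375-BIR library in DMSO (edgeR FDR = 0.0522) or the second in dabrafenib (edgeR FDR = 0.0792). The list median was -0.47 in A375 and -0.30 in A375-BIR, against 0.14 and -0.04 over all tested.

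The difference between the lines in dabrafenib response was called for 6 precursors (3.43%), and on the list for MIRLET7B (0.89, SE 0.21, edgeR FDR = 0.0282). That call was held in 5 of 20 alternatives, with a value as low as 0.41 (total counts alone) and an FDR of up to 0.365 (Benjamini-Hochberg, edgeR or DESeq2). MIRLET7B held 19.6% of all expected counts in A375 in DMSO and 26.3% in A375 in dabrafenib, against 12.4 and 12.7% in A375-BIR. The comparisons share libraries, so their calls are not independent of each other.

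**Figure D5:**
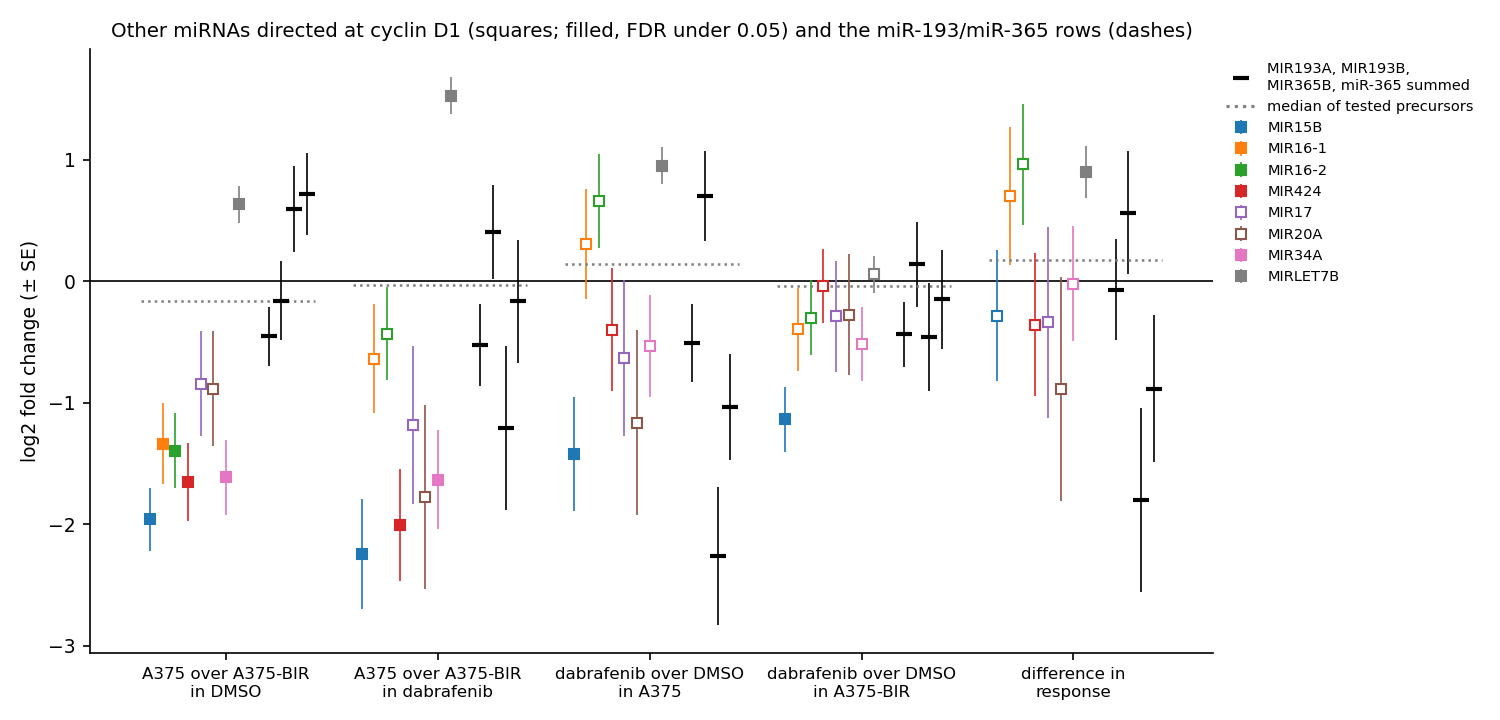
Log2 fold change with its standard error for the 8 listed miRNAs directed at cyclin D1 that passed the filter (squares, filled where the edgeR FDR was under 0.05) and for MIR193A, MIR193B, MIR365B and the summed miR-365 (dashes, in that order). Dotted lines are medians of the 175 precursors tested. Between the lines in DMSO, 5 squares are filled below 0 and that of MIRLET7B above it, at 0.63. The dashes there lie on both sides, at -0.45, -0.16, 0.59 and 0.72.

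Markers of the cell type differed by line and by treatment. Of 17 listed miRNA genes of the melanocyte and melanoma lineage, 11 had a count, MIR204 the most, and MIR507, MIR510, MIR514A1, MIR514A2, MIR514A3 and MIR514B were at 0 in all 12 libraries. Their summed level spanned 2918 to 3181 CPM without and 6621 to 10712 CPM with dabrafenib in A375, against 187 to 215 CPM without and 313 to 702 CPM with it in A375-BIR. As a share of all expected counts, the change in A375 was smaller, from 0.322 to 0.347% without to 0.544 to 0.743% with dabrafenib. MIR204 alone was at 1692 ± 159 CPM in A375 in DMSO and 6048 ± 2303 CPM in A375 in dabrafenib (mean ± SD, n = 3). MIR211, which lies within a melanocyte gene, held 0 to 9 counts a library. MIR122 of liver and the 3 genes of neuronal MIR124 were at 0 in all libraries, and MIR142 of blood cells held at most 7 counts in a library. Of 5 epithelial genes 5 had a count, MIR205 the most (62 counts), and their sum was at 47.5 to 90.3 CPM in A375 in DMSO and 165 to 224 CPM in A375 in dabrafenib, against 70.0 to 82.3 and 14.9 to 261 CPM in A375-BIR. In A375 this came from 4 to 12 counts a library in DMSO and 5 to 8 in the shallower dabrafenib libraries. As a share of all expected counts, the sum was at 0.00518 to 0.00985% in DMSO and 0.0135 to 0.0155% in dabrafenib. These ranges did not overlap. Of 5 muscle genes 5 had a count, with a sum of at most 6 counts in a library.

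Rows with likeness to ribosomal RNA, summed over the 4 of 6 listed genes that have a row, moved with the drug as well. They were at 1662 ± 222 CPM in A375 in DMSO, 24979 ± 5040 in A375 in dabrafenib, 1964 ± 161 in A375-BIR in DMSO and 8892 ± 613 in A375-BIR in dabrafenib (mean ± SD, n = 3). Without these rows the drug difference in A375 was -2.31 for MIR365B and -1.07 for the summed miR-365, against -2.27 and -1.04 with them. Their removal shifted the median log2 fold change of this comparison by only -0.04. It is therefore no test of what else moved with these rows. The part of the rows like ribosomal RNA and of the lineage and epithelial markers in the differences of the 4 precursors was not tested.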

How the data were processed

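The expected count values are as deposited. The authors trimmed adapters and low-quality bases, filtered contaminating reads (rRNA, phiX) and used RSEM 1.2.25 to assign the rest to Ensembl transcripts and genes of hg38. Of 1881 rows, 1879 were matched to GENCODE 44, from which the names were taken. The expected counts were rounded for edgeR 4.0.16 (R 4.3.3). Rows were kept with filterByExpr over the 4 groups (175 of 1881), scaled with TMM and fitted with 1 mean per group over the 12 libraries. Quasi-likelihood tests were adjusted with Benjamini-Hochberg, with a threshold of FDR under 0.05. For the summed miR-365, both rows were replaced by their sum in a separate fit. Standard errors are those of the fits. Alternatives were other filters, DESeq2 1.42.0 size factors, total counts alone, the DESeq2 Wald test, a replicate block, counts not rounded, removal of rows like ribosomal RNA and leaving out each library. Whether libraries with the same number are paired was checked by the correlation of their residuals. Python 3.11.15, pandas 2.3.3, scipy 1.17.1 and matplotlib 3.10.9 were used for tables and plots. The named genes were found by name; they and the lists were chosen with earlier results of these data known.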

Additional observations from a re-analysis of the deposited data

Results flagged for a closer look

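The difference between the lines in dabrafenib response was called for MIRLET7B (log2 fold change 0.89, edgeR quasi-likelihood test with Benjamini-Hochberg, FDR = 0.0282), the only listed miRNA for which it was. The call was held in 5 of 20 alternatives, and the value was 0.41 with total counts alone.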

How the results depend on the processing

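With total counts alone, MIR193A was at -1.0 for the drug in A375, at -0.99 for the lines in dabrafenib and at -0.52 for the difference in response. MIR193B was then at 0.19, -0.0855 and 0.0786. With looser filters MIR193A was at -0.92 (at least 1 CPM in 3 libraries) and -0.90 (no filter beyond 1 count) for the drug in A375. With these filters MIR193B was at 0.29 and 0.31 for the drug in A375 and at 0.14 and 0.15 for the lines in dabrafenib, and the summed miR-365 at -0.36 and -0.37 for the drug in A375-BIR. The difference in response was called for 6 precursors, for 1 with total counts alone and for 2 without rows like ribosomal RNA. Leaving out single libraries gave 2 (without the second A375-BIR library in dabrafenib) to 6 for it, with 3 without the first A375 library in DMSO or the first or second in dabrafenib. The 36 calls for the drug in A375-BIR became 20 to 46, lowest without its first DMSO library, 22 without its second DMSO or second dabrafenib library and highest without its DMSO library numbered 3, which stood apart. Without the first and the second A375 library in dabrafenib, MIR365B was at -2.83 and -0.63 for the lines in dabrafenib, at -3.83 and -1.68 for the drug in A375 and at -3.44 and -1.22 for the difference in response.

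The rule for pairing was a threshold of 0.1 on the correlation of residuals. Same-numbered libraries of the lines in DMSO met it narrowly, at 0.105, 0.219 and 0.303. The groups of the drug comparisons did not meet it, at -0.089 to 0.062 in A375 and -0.536 to 0.006 in A375-BIR. The block is therefore given as an alternative only. With a replicate block, 78 precursors were called between the lines in DMSO, against 81 without it, 34 against 44 with the drug in A375 and 26 against 36 with the drug in A375-BIR. Among the named genes it changed only the call of MIR15B for the drug in A375 (edgeR quasi-likelihood test with Benjamini-Hochberg, FDR = 0.0537).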
